A study of Arabidopsis thaliana with 12 samples.

Results

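The genes described here are 115 of the 28642 in the tables, a set with less RNA in Arabidopsis leaves that carry pgr5. Their level in such leaves was similar with and without the chloroplast ascorbate peroxidases. They were picked from the measured levels, given as CPM, the exon reads of a gene per 1000000 exon reads of its library. With 0.5 added to each group mean, a gene had to have a wild type mean of at least 5 CPM, ratios of pgr5 over wild type and of the triple mutant over sapx tapx of at most 0.67, and a ratio of the triple mutant over pgr5 between 0.67 and 1.5. Its highest library among the 6 with pgr5 also had to lie below its lowest library among the other 6. Of the 13035 genes that reached the wild type level, 242 met both ratios and 192 of these met the bounds on the triple mutant over pgr5. The libraries of 77 of the 192 overlapped, which left 115 genes, or 0.882% of the 13035. These ratios and separations are therefore a description of what was picked and are given without a test.

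RNA from fully expanded rosette leaves was sequenced in 4 genotypes with 3 libraries each: pgr5, the triple mutant sapx tapx pgr5, sapx tapx, and wild type. All plants had grown for 18 days at 40 to 60 µmol photons/m2/s and were then held at 1500 µmol photons/m2/s for 90 min, so every value is a level after strong light and none measures a response to it. The labels name neither alleles nor ecotype. SAPX and TAPX RNA stood at 20.2 ± 6.56 and 25.4 ± 1.49 CPM in the triple mutant and at 20.1 ± 4.3 and 18.0 ± 0.609 CPM in sapx tapx, against 221 ± 23.9 and 176 ± 12.8 CPM in wild type (SD, n = 3 each). PGR5 RNA stood at 243 ± 7.18 CPM in pgr5 and 234 ± 34.8 CPM in the triple mutant, compared with 273 ± 39.4 CPM in sapx tapx and 252 ± 2.03 CPM in wild type, so its level does not check the pgr5 label. Libraries held 4916603 to 6828070 exon reads, and 3 reads in a library, used as a floor, correspond to 0.439 to 0.610 CPM, which covers counting error only. Within wild type, replicate 2 stood apart in 19 rapid stress and touch genes. Its mean log2 CPM of these genes was 5.62, against 2.25 and 2.37 in the other wild type libraries, the lowest of all 12. It was not the highest library of the series, since sapx tapx replicate 1 lay above it. In the triple mutant replicate 2 was the low library, at 3.17 against 5.32 and 5.41. In sapx tapx replicate 2 was also the lowest, at 4.08.

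PGR5 is a small thylakoid protein that cyclic electron flow around photosystem I depends on, in which electrons return from ferredoxin to the plastoquinone pool and protons are moved into the thylakoid lumen. The proton gradient that results slows electron transport and protects photosystem I in strong light. The stromal and thylakoid ascorbate peroxidases use ascorbate to remove the hydrogen peroxide that forms when photosystem I passes electrons to oxygen.

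The letters upstream of 3 of the genes are shown because these genes are the extremes of the set in fold or in level: AT2G33850 was the lowest relative to its controls, GPRI1 is the transcription factor with the lowest ratios, and RBCS2B is the most abundant member. Each line gives the 250 bases that end just before the gene start in the deposited data, 5′ to 3′ on the strand of the gene. The letters are those of the RefSeq genome (TAIR10.1). AT2G33850 lies at chr2:14322050-14322299, minus strand, GPRI1 at chr2:8855108-8855357, plus strand, and RBCS2B at chr5:15382036-15382285, minus strand. Capitals mark the G-box (CACGTG) and the I-box core (GATAAG) on either strand, elements known from light-regulated plant promoters.
AT2G33850: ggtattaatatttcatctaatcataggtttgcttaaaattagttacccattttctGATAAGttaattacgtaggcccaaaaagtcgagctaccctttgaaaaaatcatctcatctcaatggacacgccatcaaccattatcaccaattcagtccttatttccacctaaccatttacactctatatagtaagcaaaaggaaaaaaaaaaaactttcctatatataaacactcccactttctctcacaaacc
GPRI1: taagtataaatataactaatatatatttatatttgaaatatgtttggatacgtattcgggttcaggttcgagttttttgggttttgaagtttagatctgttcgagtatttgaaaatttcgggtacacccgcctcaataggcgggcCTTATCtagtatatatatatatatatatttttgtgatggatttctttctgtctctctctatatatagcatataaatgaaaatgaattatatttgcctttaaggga
RBCS2B: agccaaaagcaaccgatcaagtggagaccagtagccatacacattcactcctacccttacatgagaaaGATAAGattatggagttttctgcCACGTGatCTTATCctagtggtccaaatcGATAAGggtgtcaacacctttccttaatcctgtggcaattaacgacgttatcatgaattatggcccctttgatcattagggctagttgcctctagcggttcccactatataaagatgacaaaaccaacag
The RBCS2B window holds a G-box that begins 159 bases before the start and I-box cores at 182, 151 and 130 bases, while AT2G33850 and GPRI1 hold 1 I-box core each, at 195 and 105 bases. Over the same window of all members, the G-box occurred in 14 of 115 (12.2%), against 10.1% of 13034 genes. These 13034 genes had a wild type mean of 5 CPM or more, members included. The I-box core occurred in 16 (13.9%), against 13.6% of the 13034. A GLK-type element (CCAATC) occurred in 8 (6.96%), against 12%. The heat shock element (GAANNTTC) occurred in 7 (6.09%), against 9.34%. The telo box (AAACCCTA) occurred in 4 (3.48%), against 6.11%. The evening element (AAAATATCT) occurred in 1 (0.870%), against 2.62%. All 6 motifs were searched on both strands, and a match of letters is not a binding site.

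The separation between genotypes was modest for most of the genes and very large for a few. The median member stood at 58.1% of the wild type level in pgr5 and at 52.0% of the sapx tapx level in the triple mutant, log2 ratios of -0.78 and -0.94. Both ratios were at or under 0.5 in 26 genes and at or under 0.25 in 6 genes: AT2G33850, ZIP7, AGP4, PGM, GPRI1 and AT2G30766. In 7 genes the lowest of the 6 libraries without pgr5 was at least 2 times the highest of the 6 with it, namely the first 5 of these, TOPP6 and RBCS2B. The triple mutant had a lower ratio to sapx tapx than pgr5 had to wild type in 79 genes, and the order was the other way in 36. The triple mutant over pgr5 had a median of 0.924, with quartiles of 0.825 and 1.02. Because these are whole leaves, fewer cells of a type and less RNA per cell cannot be told apart.

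**Figure D1:**
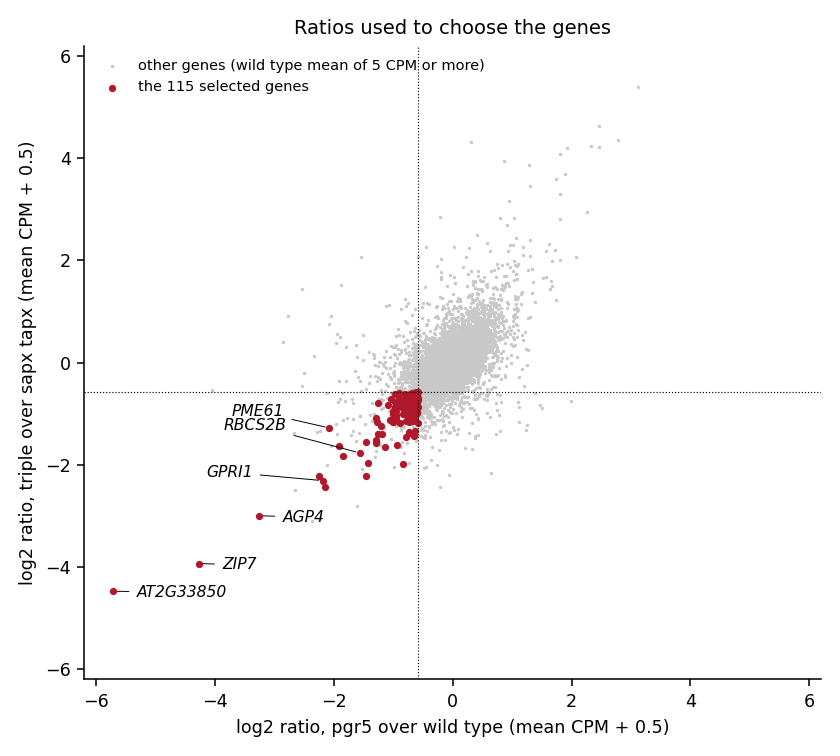
Log2 ratio of pgr5 over wild type (x axis) against the log2 ratio of the triple mutant over sapx tapx (y axis), both of mean CPM + 0.5, for the 13035 genes with a wild type mean of 5 CPM or more. The 115 picked genes (red) fill the lower left corner set by the 0.67 thresholds (dotted lines), with AT2G33850, ZIP7 and AGP4 far from the rest.

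Summed over the 115 genes, the RNA came to 4935 to 5724 CPM in the pgr5 libraries and 4314 to 5166 CPM in the triple mutant, against 10784 to 12359 CPM in sapx tapx and 10114 to 12908 CPM in wild type. RBCS2B alone gave 27.7 to 31.1% of this sum in pgr5 and 27.9 to 30.8% in the triple mutant, against 38.4 to 41.2% in sapx tapx and 40.3 to 42.3% in wild type. Without it the sums were 3569 to 3955 CPM in pgr5 and 3109 to 3720 CPM in the triple mutant, compared with 6638 to 7264 CPM in sapx tapx and 6040 to 7452 CPM in wild type. The 6 libraries with pgr5 lay below the other 6 in both sums, which the rule fixed by requiring it of each gene. Wild type replicate 2, which stood apart within wild type in the stress genes, had a members' mean log2 CPM of 4.75, against 4.88 and 4.93 in the other wild type libraries. The 6 libraries with pgr5 had 3.65 to 3.93, and the rule fixed this order too.

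**Figure D2:**
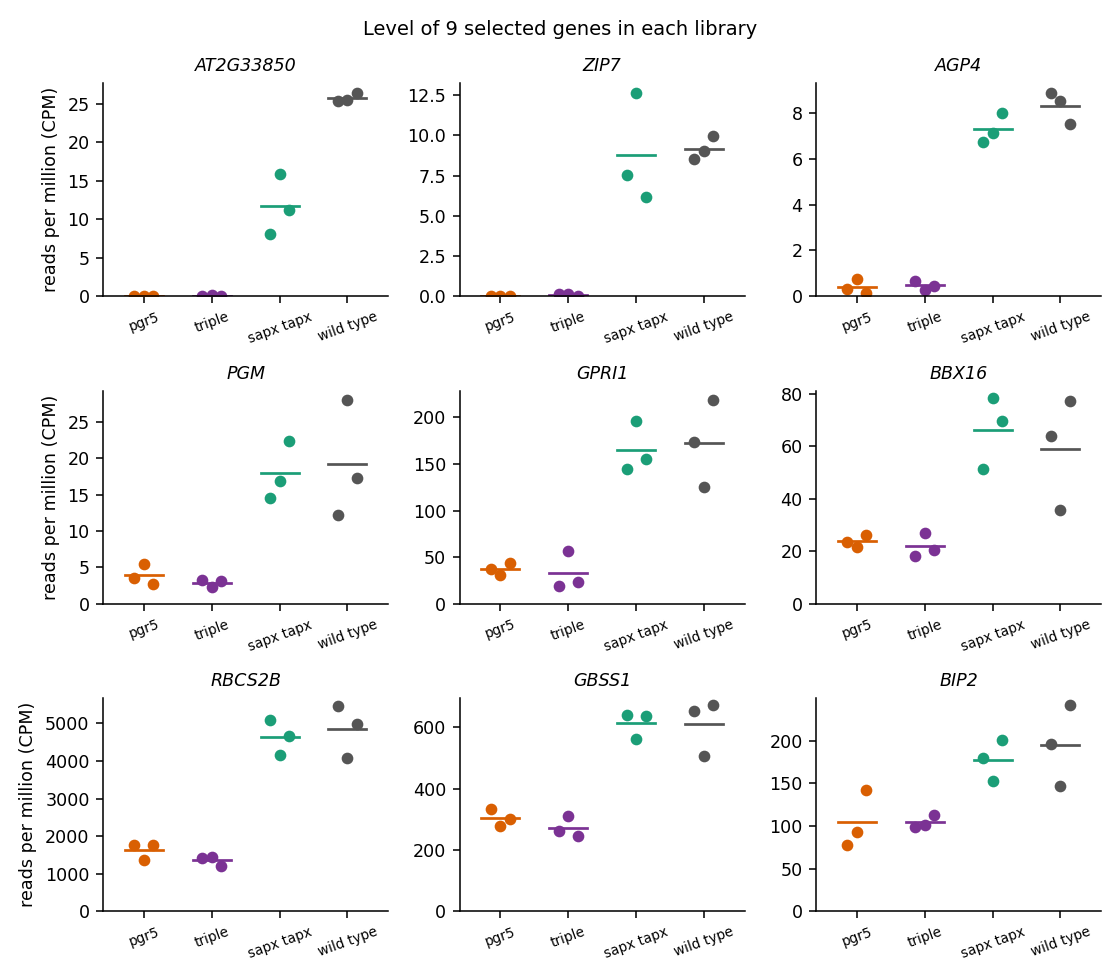
CPM (linear axes from 0) in each library (points) with the group mean (line) for 9 of the genes, in pgr5, the triple mutant, sapx tapx and wild type. In every panel the 6 libraries with pgr5 lie below the other 6, as the rule required, and AT2G33850 and ZIP7 sit at or next to 0 in those 6.

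AT2G33850, annotated as an E6-like protein and so named after a protein of cotton fibres, had no read in 3 pgr5 libraries and 1 read in the triple mutant. Its levels were 0, 0 and 0 CPM in pgr5 and 0, 0.149 and 0 in the triple mutant, compared with 8.13, 15.9 and 11.2 in sapx tapx and 25.4, 25.5 and 26.3 in wild type. The sapx tapx libraries were all below the wild type libraries. With 0 reads in pgr5 against 451 in wild type it was at least 160-fold lower at a floor of 3 reads over the group. In the triple mutant 1 read stood against 204 in sapx tapx, a ratio of 220 with a 95% counting interval of 39.1 to 8745. The gene lies on chromosome 2 at 14321062 to 14322049, minus strand.

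ZIP7, a zinc transporter of the ZIP family, followed the same pattern without the step between sapx tapx and wild type. Its levels were 0, 0 and 0 CPM in pgr5 and 0.171, 0.149 and 0 in the triple mutant, compared with 7.5, 12.6 and 6.19 in sapx tapx and 8.52, 9.03 and 9.98 in wild type. The gene had 0 reads in pgr5 against 161 in wild type, at least 57.2-fold lower at the floor, and 2 reads in the triple mutant against 151 in sapx tapx, a ratio of 81.5 with a 95% counting interval of 22.2 to 680. It lies on chromosome 2 at 1289832 to 1291383 and is the only member within 1 Mb, or within 2 Mb, of PGR5 itself. AGP4, a cell surface arabinogalactan protein, had 0.34, 0.754 and 0.163 CPM in pgr5 and 0.686, 0.298 and 0.439 in the triple mutant, compared with 6.72, 7.12 and 8.0 in sapx tapx and 8.86, 8.49 and 7.52 in wild type, and no library with pgr5 reached 1 CPM.

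Some trichome genes outside the set also fell. GL2, the homeodomain regulator of trichome and root hair fate, fell in both comparisons, by 3.41 ± 0.43 log2 units (SE) in pgr5 against wild type and by 4.02 ± 0.55 in the triple mutant against sapx tapx (edgeR adjusted p = 0.00165 and 0.000917, both kept whichever library was left out). It had 0.51, 0.302 and 0.488 CPM in pgr5 and 0.171, 0.298 and 0 in the triple mutant, compared with 1.88, 3.05 and 3.62 in sapx tapx and 4.26, 4.16 and 6.22 in wild type. MYB23 fell by 2.73 ± 0.51 in pgr5 (adjusted p = 0.0136, but 0.0736 without pgr5 replicate 2 and also not called without pgr5 replicate 3 or wild type replicate 1) and by 2.45 ± 0.47 in the triple mutant (adjusted p = 0.00744). TTG2 fell by 1.95 ± 0.38 in the triple mutant (adjusted p = 0.00827), while TTG1 rose there by 1.14 ± 0.19 (adjusted p = 0.00302). Of the 18 genes of the trichome list 11 were tested: 2 fell and none rose in pgr5, and 3 fell and 1 rose in the triple mutant. The list summed to 55.6 to 65.1 CPM in pgr5 and 49.2 to 60.9 CPM in the triple mutant, compared with 47.4 to 68.7 CPM in sapx tapx and 59.4 to 66.4 CPM in wild type, and MYB0 (GL1) had 1 read in all 12 libraries. Of 9 phloem markers 3 rose in each comparison. SUC2, a sucrose transporter, rose by 1.19 ± 0.11 in pgr5 (adjusted p = 0.000133) and by 1.16 ± 0.11 in the triple mutant (adjusted p = 4.62e-05), and both calls were kept whichever library was left out. In pgr5 PP2-A1 was also kept in all 12 omissions, while AHA3 was lost in 7. The triple mutant calls of PP2-A1 (adjusted p = 0.0174) and SWEET12 (adjusted p = 0.0317) were both lost without sapx tapx replicate 2 or 3 or triple mutant replicate 1, which leaves SUC2 of these 3, and SWEET12 was also lost without triple mutant replicate 3. None of 14 guard cell, 9 dividing cell, 21 epidermis and 3 mesophyll markers was called in pgr5, though with the block 1 mesophyll marker rose in each comparison. The guard cell marker FAMA fell in the triple mutant by 0.46 ± 0.11 (adjusted p = 0.0296) and the epidermis marker PDF2 by 0.50 ± 0.12 (adjusted p = 0.0221). Both were lost without any 1 sapx tapx library or without triple mutant replicate 1 or 3, at up to 0.121. The dividing cell marker MCM2 fell by 0.75 ± 0.12 (adjusted p = 0.00268) and the epidermis marker LTP2 rose by 1.66 ± 0.34 (adjusted p = 0.0103), both kept in all 12 omissions, and with the block 2 dividing cell markers fell. The part of trichome or other cell type RNA in the low AT2G33850, ZIP7 or AGP4 levels was not tested.

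Transcription factors made up 17 of the 115 genes and had the lowest median pgr5 ratio of the roles, with log2 medians of -1.01 (pgr5) and -1.09 (triple mutant). GPRI1, better known as GLK1, is a GARP factor that switches on genes for chlorophyll synthesis and light harvesting. It had 37.5, 31.1 and 43.4 CPM in pgr5 and 18.9, 56.9 and 23.1 in the triple mutant, compared with 144, 196 and 155 in sapx tapx and 174, 125 and 219 in wild type, which is 21.9% of the wild type level in pgr5 and 20.2% of the sapx tapx level in the triple mutant. Triple mutant replicate 2, at 56.9 CPM, stood well above the other libraries of its group, yet below every library without pgr5. GLK2, its partially redundant partner, was not called, at -0.37 ± 0.15 in pgr5 (adjusted p = 0.196) and -0.49 ± 0.15 in the triple mutant (adjusted p = 0.0701). Of the 11 tested regulators of light signalling and greening outside the set none fell in either comparison, and PIF4 rose by 0.81 ± 0.21 in the triple mutant (adjusted p = 0.0347, lost without any 1 sapx tapx library or without triple mutant replicate 1 or 3, at up to 0.128, and not called with the replicate number as a block, at 0.0571). With that block 1 of the 11 rose in pgr5 and 1 in the triple mutant.

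GLK factors are known to act on genes of chlorophyll synthesis and light harvesting. Among 12 tested chlorophyll synthesis genes none was called in either comparison, and with the block 1 fell and 1 rose in pgr5 and 1 fell in the triple mutant. Among 35 light-harvesting and photosystem genes 1 fell in pgr5 and 4 fell in the triple mutant, or 6 with the block, and the median log2 fold changes were -0.05 and -0.11, with 24 and 30 of the 35 below 0. The 4 were LHCB1.1, LHCB2.1, LHCB2.2 and PSAK, and each of these calls was lost without sapx tapx replicate 2 and without triple mutant replicate 1. LHCB2.2 fell by 0.38 ± 0.09 in pgr5 (adjusted p = 0.0329, lost without any 1 pgr5 library or without wild type replicate 1 or 3, at up to 0.121) and by 0.33 ± 0.09 in the triple mutant (adjusted p = 0.0366, lost in 7 of the 12 omissions of a library, at up to 0.126).

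The other transcription factors came from families with few members in the set. CRF3 and CRF2, cytokinin response factors of the AP2/ERF class, stood at 36.5% and 60.5% of wild type in pgr5 and at 21.6% and 38.6% of sapx tapx in the triple mutant. CRF3 was low throughout, with 3.91, 1.36 and 2.28 CPM in pgr5 and 2.23, 1.19 and 1.17 in the triple mutant, compared with 10.9, 6.92 and 8.91 in sapx tapx and 10.9, 4.52 and 7.85 in wild type. Among the 9 other CRF genes tested, CRF4 fell by 1.98 ± 0.41 in pgr5 (adjusted p = 0.0219, lost without replicate 1 or 3 of either pgr5 or wild type, at up to 0.0935) and none fell in the triple mutant. BBX15 and BBX16 are B-box zinc finger proteins, a class that takes part in light signalling. BBX15 had 64.2, 85.4 and 83.9 CPM in pgr5 and 52.98, 53.8 and 60.05 in the triple mutant, compared with 119.9, 125 and 127 in sapx tapx and 109.9, 147 and 149 in wild type, and BBX16 had 23.6, 21.6 and 26.3 CPM in pgr5 and 18.3, 27.1 and 20.7 in the triple mutant, compared with 51.4, 78.3 and 69.6 in sapx tapx and 63.9, 35.8 and 77.2 in wild type. None of the 13 other genes annotated as BBX and tested fell in either comparison, and BBX27 rose by 1.92 ± 0.42 in the triple mutant (adjusted p = 0.0163, lost without any 1 sapx tapx library or without triple mutant replicate 1 or 3, at up to 0.0663).

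PAP1 (MYB75) is the MYB factor that drives anthocyanin synthesis. It had 12.9, 4.07 and 6.34 CPM in pgr5 and 9.43, 13.8 and 4.25 in the triple mutant, compared with 20.8, 21.8 and 17.8 in sapx tapx and 16.9, 24.8 and 17.8 in wild type, so its libraries with pgr5 spread over a wide range just under the others. Of 15 tested flavonoid genes 1 fell in pgr5 and 2 fell in the triple mutant (PAL1 and UGT78D1), PAL1 not without sapx tapx replicate 3 or triple mutant replicate 1. UGT78D1, a flavonol glycosyltransferase, fell in both, by 0.85 ± 0.12 in pgr5 (adjusted p = 0.00412) and by 0.53 ± 0.12 in the triple mutant (adjusted p = 0.0205, lost without sapx tapx replicate 2 or 3 or triple mutant replicate 1 or 3, at up to 0.0954). GATA15 and GATA17, AP2, the growth-regulating factor GRF4, the zinc finger protein ZFP8, the bHLH factor NIG1 and the MYB-related MYR1 stood at 45.3% to 59.0% of wild type in pgr5 and at 32.0% to 56.7% of sapx tapx in the triple mutant. Only 31.4 to 39.1% of the MYR1 reads were unique to it, so its level may hold reads of another gene.

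Photosynthesis, starch and central carbon metabolism gave 8 genes. RBCS2B, a small subunit of Rubisco, the enzyme that fixes CO2, was by far the most abundant at 5542 RPKM (reads per kilobase of exon, scaled to library size) in wild type, followed by ESM1 at 802 RPKM. It had 1769.5, 1366 and 1760.4 CPM in pgr5 and 1432, 1447 and 1205 in the triple mutant, compared with 5095, 4146 and 4664 in sapx tapx and 5456, 4074 and 4980.2 in wild type, which is 33.8% of the wild type level in pgr5 and 29.4% of the sapx tapx level in the triple mutant. It lies on chromosome 5 at 15380945 to 15382035, minus strand, next to RBCS1B and RBCS3B, and 99.0 to 99.3% of its reads were unique to it. The 3 other small subunit genes were not called. RBCS1A stood at 0.15 ± 0.09 log2 units in pgr5 (adjusted p = 0.422) and 0.01 ± 0.09 in the triple mutant (adjusted p = 0.971). RBCS3B stood at 0.14 ± 0.08 (adjusted p = 0.356) and 0.04 ± 0.08 (adjusted p = 0.845), and RBCS1B at -0.18 ± 0.10 (adjusted p = 0.339) and -0.14 ± 0.10 (adjusted p = 0.439). In CPM, RBCS1A had 20624 in pgr5 and 21021 in the triple mutant, against 21081 in sapx tapx and 19130 in wild type.

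The introns of RBCS2B did not follow its exons. It had 113, 163 and 146 intron reads in pgr5 and 36, 91 and 95 in the triple mutant, against 77, 73 and 128 in sapx tapx and 62, 93 and 110 in wild type. All 3 pgr5 libraries lay above the wild type ones, and the triple mutant and sapx tapx overlapped. Per 100 exon reads this is 1.39 in pgr5 and 0.844 in the triple mutant, against 0.331 in sapx tapx and 0.312 in wild type. GPRI1, with few intron reads, had 3.46 in pgr5 and 1.69 in the triple mutant, against 0.925 in sapx tapx and 0.689 in wild type. Of 48 members with at least 20 intron reads over all libraries, 38 (79.2%) were lower in both comparisons in mean intron reads per library size. Of the 6660 genes with a wild type mean of 5 CPM or more and as many intron reads, 1933 (29.0%) were. The rule did not use the intron reads, but they come from the same libraries as the exon reads that it used. The library kit does not mark strand, so intron reads from a gene on the other strand cannot be told apart.

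GBSS1, the granule-bound starch synthase that makes amylose, had 332, 279 and 302 CPM in pgr5 and 261, 309 and 246 in the triple mutant, compared with 638, 561 and 636 in sapx tapx and 652, 506 and 673 in wild type. PGM, annotated as a phosphoglycerate/bisphosphoglycerate mutase, had 3.57, 5.43 and 2.77 CPM in pgr5 and 3.26, 2.38 and 3.08 in the triple mutant, compared with 14.5, 16.9 and 22.3 in sapx tapx and 12.3, 28 and 17.3 in wild type. Its gene overlaps AT1G78060 on the other strand by 77 bases, and reads within that overlap cannot be told apart. PCK1, the phosphoenolpyruvate carboxykinase of gluconeogenesis, had 34.3, 33.6 and 33.3 CPM in pgr5 and 42.4, 37.2 and 37.6 in the triple mutant, compared with 73.3, 62.4 and 68.8 in sapx tapx and 81.8, 81.3 and 80.1 in wild type, with little spread in pgr5 and wild type. AMY2, an alpha-amylase-like protein, and RFNR2, a ferredoxin-NADP reductase of the root type, stood at 64.3% and 65.5% of wild type in pgr5 and at 58.8% and 50.2% of sapx tapx in the triple mutant. Without wild type replicate 2 the fitted log2 difference of RFNR2 in pgr5 was -0.32. Of the 13 starch genes outside the set none fell in pgr5, where BAM1, a beta-amylase, rose by 0.42 ± 0.09 (adjusted p = 0.0308, lost without pgr5 replicate 1 or 3 or any 1 wild type library, at up to 0.105). In the triple mutant 5 of the 13 fell and BAM1 rose by 0.74 ± 0.09 (adjusted p = 0.000483). The 5 that fell were PHS1, PHS2, ISA3, DPE2 and SEX4, enzymes that break down starch or its products, by 0.43 to 1.02 log2 units, each call lost without sapx tapx replicate 1 or triple mutant replicate 3 (adjusted p of up to 0.134). With the block, and with GBSS1 counted, 3 fell and 2 rose in pgr5, and 7 fell and 1 rose in the triple mutant.

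**Figure D3:**
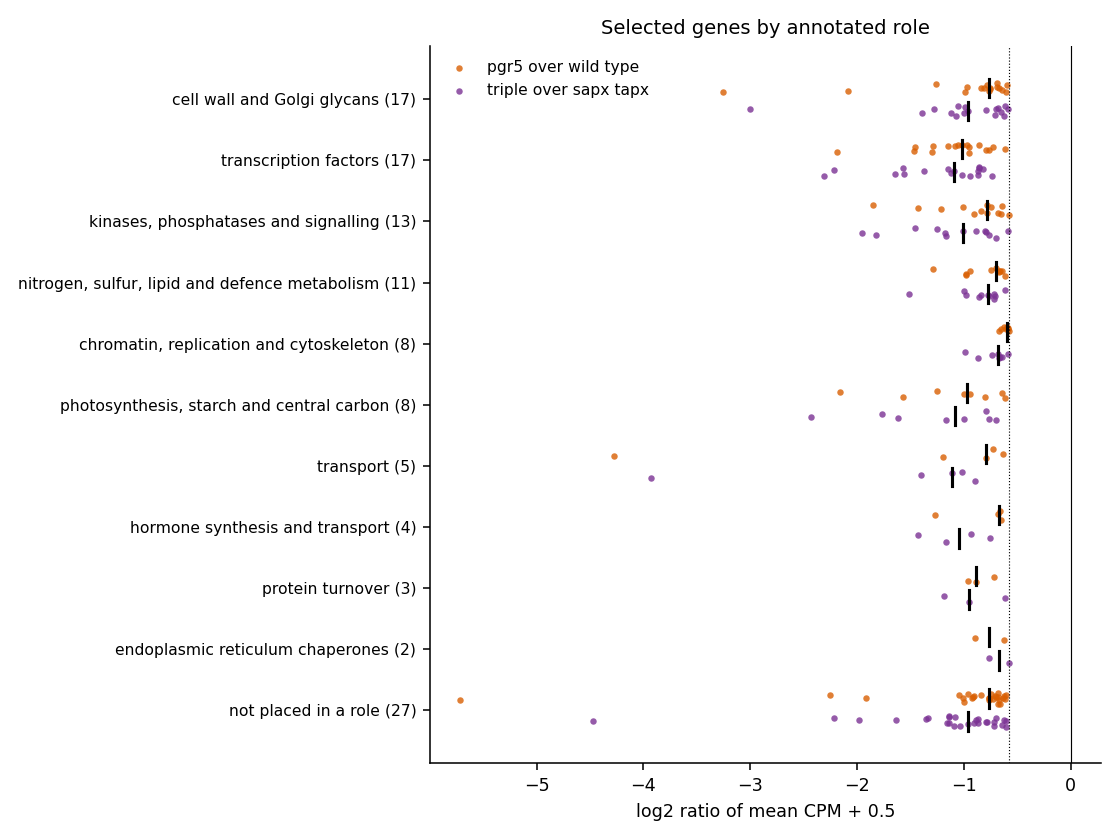
Log2 ratio of mean CPM + 0.5 (x axis) for each of the 115 genes by annotated role, with pgr5 over wild type in orange and the triple mutant over sapx tapx in purple. Bars mark medians and the dotted line the threshold of 0.67: transcription factors and the photosynthesis, starch and carbon genes have the lowest pgr5 medians among the larger roles.

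Cell wall and Golgi glycan genes were as many as the transcription factors, 17, with log2 medians of -0.76 and -0.96. PME61, a pectin methylesterase, had 1.87, 2.56 and 3.74 CPM in pgr5 and 3.94, 4.77 and 3.08 in the triple mutant, compared with 8.29, 11.4 and 11 in sapx tapx and 14.6, 11.7 and 13.1 in wild type. TBL26, from the family of wall polysaccharide acetyltransferases, had 104, 57.3 and 79.4 CPM in pgr5 and 100.6, 77.4 and 63.4 in the triple mutant, compared with 270.0, 148 and 219 in sapx tapx and 216, 199 and 164 in wild type. Pectin synthesis was represented by GAUT14, GATL2 and GATL3, xyloglucan by CSLC5 and GT18 (XLT2), mannan by MSR1, and arabinose supply by the mutase RGP1, all at 51.1% to 66.0% of wild type in pgr5 and at 47.6% to 65.4% of sapx tapx in the triple mutant. Of the 15 other GAUT and GATL genes tested none fell in pgr5 and 4 fell in the triple mutant, among them GAUT1 by 0.40 ± 0.07 (adjusted p = 0.00449) and GAUT9 by 0.40 ± 0.08 (adjusted p = 0.00767). GAUT7 (adjusted p = 0.0237) and GAUT13 (adjusted p = 0.0275) were both lost without sapx tapx replicate 1 or 2 or triple mutant replicate 1 or 3, at up to 0.121, and GAUT7 also without sapx tapx replicate 3. With the block GAUT9 also fell in pgr5. EXPA5, an expansin, had 40.2 CPM in pgr5 and 36.0 in the triple mutant, against 72.1 in sapx tapx and 68.5 in wild type. Of the 24 tested genes for wall loosening outside the set, none fell and 1 rose in pgr5, and 1 fell and 1 rose in the triple mutant. XTH5 rose by 1.03 ± 0.21 in pgr5 (adjusted p = 0.0202, lost without any 1 pgr5 or wild type library, at up to 0.0838, and not called by DESeq2, at 0.128). EXPB1 fell by 1.87 ± 0.43 in the triple mutant (adjusted p = 0.0198, lost without sapx tapx replicate 1 or triple mutant replicate 1 or 3, at up to 0.0891). EXPA16 rose there by 0.65 ± 0.17 (adjusted p = 0.0367, lost without any 1 triple mutant library or without sapx tapx replicate 1 or 3, at up to 0.123, and not called with the block, at 0.0549). None of the 16 other AGP genes tested fell in either comparison.

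The 2 chaperones of the endoplasmic reticulum in the set were BIP2, the luminal HSP70, and AT4G16660, an HSP70-like protein. BIP2 had 77.98, 92.6 and 143 CPM in pgr5 and 99.3, 101.1 and 113 in the triple mutant, compared with 179, 153 and 200.3 in sapx tapx and 196, 147 and 241 in wild type. Wild type replicate 2 and pgr5 replicate 3 lay nearest each other, at 147 and 143 CPM, and without pgr5 replicate 3 the fitted log2 difference was -1.16. All 16 tested genes of the chaperone list had a fold change below 0 in pgr5, and 4 of the 15 outside the set fell. With BIP2 counted 5 fell, or 8 with the block. The 4 were BIP1 (by 0.70 ± 0.15, adjusted p = 0.0257), the lectin chaperones CNX1 (by 0.67 ± 0.14, adjusted p = 0.0257) and CRT1 (by 0.54 ± 0.12, adjusted p = 0.0249), and ERDJ3B (by 0.50 ± 0.12, adjusted p = 0.0383). BIP1, CNX1 and CRT1 were each lost without pgr5 replicate 1, pgr5 replicate 2, wild type replicate 1 or wild type replicate 3, with adjusted p of up to 0.118, and ERDJ3B was lost in 8 of the 12 omissions. In the triple mutant CNX1 and PDIL1-1 fell, by 0.54 ± 0.14 and 0.36 ± 0.10 (adjusted p = 0.0396 and 0.0481, lost in 8 and 10 of the 12 omissions), and ERDJ3A rose by 1.58 ± 0.32 (adjusted p = 0.0107, but 0.0511 without sapx tapx replicate 1). With the block, and with BIP2 counted, 5 fell and 1 rose. BIP2 itself was at 59.0% of sapx tapx there.

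Hormone genes were 4. IPT3 makes cytokinin precursors in the phloem and is known to respond to nitrate, and it had 12.4, 11.2 and 16.1 CPM in pgr5 and 6.69, 10.4 and 9.08 in the triple mutant, compared with 22.8, 20.9 and 29.4 in sapx tapx and 20.1, 18.4 and 25 in wild type. CYP711A1 (MAX1), which acts in strigolactone synthesis and overlaps IQD6 on the other strand, had 18.2, 16.6 and 16.3 CPM in pgr5 and 15.1, 18.8 and 13.3 in the triple mutant, compared with 27.4, 26 and 27.5 in sapx tapx and 29.6, 25.5 and 27.8 in wild type. BRXL4, related to BREVIS RADIX, stood at 63.6% of wild type in pgr5 and 52.5% of sapx tapx in the triple mutant. Of 10 tested auxin genes none was called in pgr5 and 2 fell in the triple mutant: AUX1 by 0.62 ± 0.17 (adjusted p = 0.0418, lost in 6 of the 12 omissions, at up to 0.131) and PIN3 by 0.55 ± 0.14 (adjusted p = 0.0269, lost in 5, at up to 0.102). Neither is in the set.

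Kinases, phosphatases and other signalling genes were 13. TOPP6, a type 1 protein phosphatase, had 3.06, 1.36 and 0.813 CPM in pgr5 and 1.71, 2.38 and 1.76 in the triple mutant, compared with 9.22, 7.73 and 7.55 in sapx tapx and 6.98, 9.22 and 6.54 in wild type. The receptor-like kinase gene AT4G10390 had 3.4, 1.51 and 2.6 CPM in pgr5 and 2.57, 2.08 and 2.93 in the triple mutant, compared with 12.8, 8.14 and 12.8 in sapx tapx and 4.94, 12.8 and 4.91 in wild type, and its wild type libraries ranged from just above pgr5 to the sapx tapx level. MPK19, a MAP kinase, stood at 58.1% of wild type in pgr5 and 36.4% of sapx tapx in the triple mutant, and AT1G78020 at 66.9% and 44.4%. Among 11 genes of nitrogen, sulfur, lipid and defence metabolism, ESM1, which steers glucosinolate breakdown towards isothiocyanates, had 726, 755 and 805 CPM in pgr5 and 583, 706 and 539 in the triple mutant, compared with 1641, 983 and 974.9 in sapx tapx and 1651, 881 and 1084 in wild type. Its replicate 1 libraries were high in sapx tapx and wild type, and without wild type replicate 1 its fitted log2 difference in pgr5 was -0.32. CYP81F3 and CYP91A2, neighbours that hydroxylate indole glucosinolates, stood at 40.9% and 65.5% of wild type in pgr5 and at 35.0% and 61.0% of sapx tapx in the triple mutant, though 18.2 to 29.0% of the CYP91A2 reads were unique. None of 16 aliphatic glucosinolate genes was called in either comparison, but with the block 3 fell in pgr5 and 1 fell in the triple mutant. SERAT2;2, the mitochondrial serine acetyltransferase of cysteine synthesis, and AO, the L-aspartate oxidase that begins NAD synthesis, were both at 62.8% of wild type in pgr5, and at 60.9% and 55.8% of sapx tapx in the triple mutant.

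Of the transport genes other than ZIP7, AT4G34950, a major facilitator protein, was the most abundant, with 126, 87.3 and 111 CPM in pgr5 and 77.5, 90.4 and 91.4 in the triple mutant, compared with 212, 231 and 247 in sapx tapx and 273, 187 and 283 in wild type. The 6-phosphogluconate dehydrogenase gene AT5G41670 had 94.99 CPM in pgr5 and 67.4 in the triple mutant, against 207 in sapx tapx and 183 in wild type, and the unplaced gene AT5G20190 had 117 CPM in pgr5 and 117 in the triple mutant, against 262 in sapx tapx and 235 in wild type. Low ratios were also found in 3 unplaced genes: AT2G30766 at 21.0% of wild type in pgr5 and 21.5% of sapx tapx in the triple mutant, AT1G62870 at 26.6% and 32.3%, and AT1G80130 at 55.8% and 25.3%. Of the AT2G30766 reads 58.5 to 76.3% were unique to it, so its level may hold reads of another gene. Chromatin, replication and cytoskeleton genes, 8 in all and including the histone H3 gene AT5G10390 and the SCAR/WAVE protein WAVE2, lay close to the threshold, with log2 medians of -0.60 and -0.68.

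The rule set no direct threshold on sapx tapx over wild type. It used the libraries of both groups, however, and its bounds on the 2 ratios and on the triple mutant over pgr5 also limit how far apart these groups can lie, so the values here describe what was picked and nothing about the genes is read from the counts. None of the 115 was called, where 0.0367% of the 16350 genes tested were, 6 genes in all (edgeR adjusted p under 0.05). DESeq2 also called none of the 115, with a smallest adjusted p of 0.0568. At an unadjusted p under 0.05, 6 of the 115 passed, 2 lower and 4 higher, against 7.5% of all genes. The median log2 fold change of the members was 0.06, from -1.07 to 0.82, and 111 lay within 0.5 of 0, while the median over all genes was 0.005 with quartiles of -0.13 and 0.15. The mean CPM of sapx tapx was above that of wild type in 52 of the 115, and the fitted change, which uses TMM scaling, was above 0 in 71, so the direction of the smallest differences depends on the scaling.

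**Figure D4:**
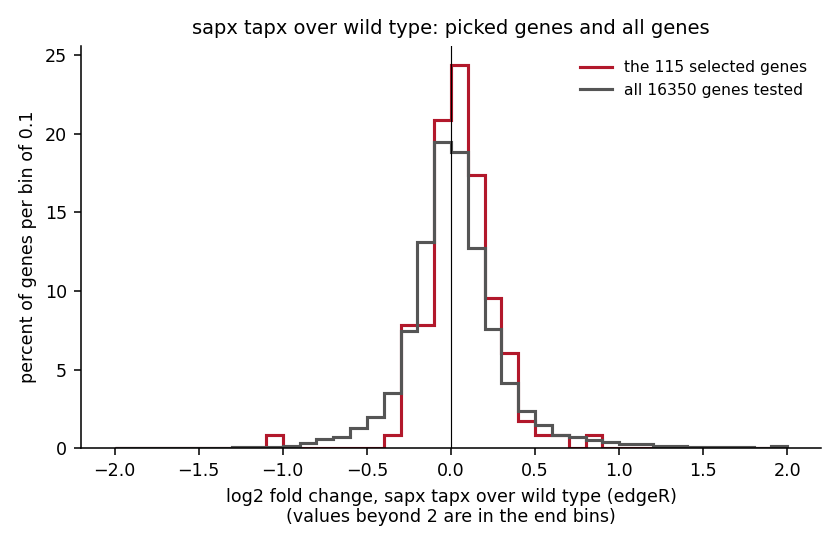
Share of genes in percent (y axis) by log2 fold change of sapx tapx over wild type in bins of 0.1 (x axis), for the 115 picked genes (red) and all 16350 genes tested (grey). Both distributions centre near 0, and 111 of the 115 lie within 0.5 of it, with AT2G33850 alone near -1.

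AT2G33850 was the lowest in that contrast, at -1.07 ± 0.24 with a 95% interval of -1.53 to -0.61. AT1G80130 at 0.82 ± 0.32 and AT4G10390 at 0.67 ± 0.35 were the highest. Without replicate 2 of both wild type and sapx tapx, 2 members were called, AT2G33850 as lower and AT4G10390 as higher, with a smallest adjusted p of 0.0208. The median SE of the members in this contrast was 0.19.

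In the contrasts that the rule used directly, edgeR called 72 of the 115 lower in pgr5 against wild type, where 1.46% of all genes were called lower, and 100 lower in the triple mutant against sapx tapx, where 3.13% were. None was called in the triple mutant against pgr5 (1.54% of all genes in either direction) or in the interaction (0.141%), with 12 and 11 members passing at an unadjusted p under 0.05 (14.1% and 7.04% of all genes). Nothing is read from these counts, since the rule set them.

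A choice of genes made on 8 libraries and read in the 4 left out gave the same direction for most genes. With the libraries numbered 1 left out, 163 genes were picked, and 149 of them (91.4%) were lower in both left-out pairs. Of all genes that reached the wild type minimum on the other 8 libraries, 34.6% were. With the libraries numbered 2 left out, 139 of 149 genes (93.3%) were lower in both, against 35.2%, and with those numbered 3 left out 115 of 119 (96.6%), against 38.8%. Both left-out ratios stayed at or under 0.67 in 73 of 163 (44.8%), 54 of 149 (36.2%) and 79 of 119 genes (66.4%), where 1.69% to 2.40% of all genes that reached the minimum did. The 3 lists shared 94, 87 and 84 genes with the 115. The left-out libraries are of the same series, and nothing in the labels says that they came from separate plants. The rounds therefore describe these libraries and are no independent check of the set.

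**Figure D5:**
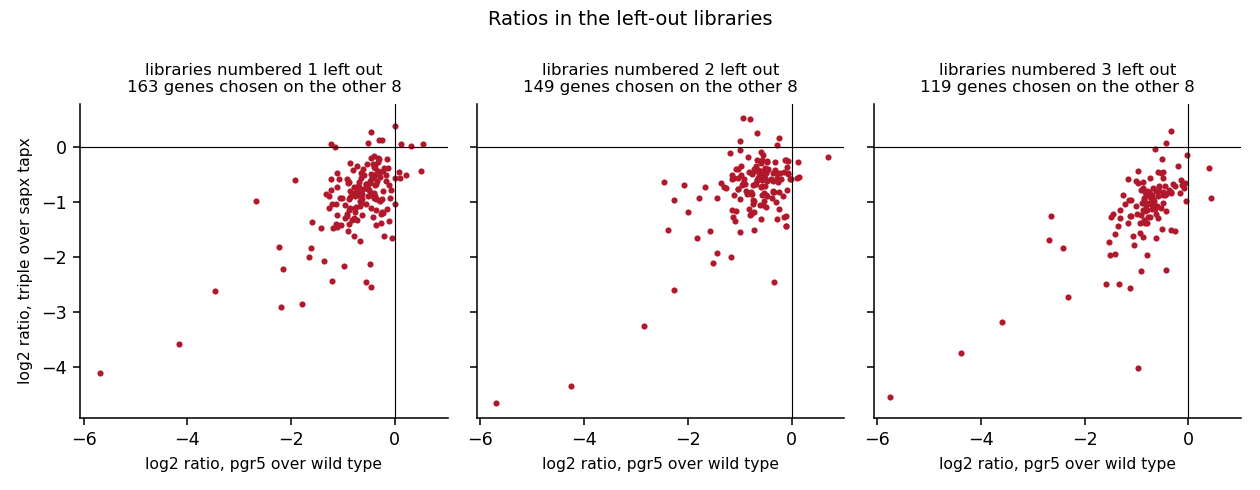
Log2 ratios in the 4 left-out libraries, pgr5 over wild type (x axis) and triple mutant over sapx tapx (y axis), for genes picked on the other 8 libraries, in 3 rounds. Most points lie below 0 on both axes, with linear median ratios of 0.592 to 0.651 for pgr5 over wild type and 0.494 to 0.642 for the triple mutant over sapx tapx.

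The threshold cut through a continuous range. Just inside it were AT4G16660, with a ratio of 0.6696 in the triple mutant, and AT5G10390 and AT1G78020, both with 0.669 in pgr5. Just outside were AT2G23950, AT3G03770 and AT4G02010, each with a larger ratio of 0.671. The 115 are also not 115 independent measurements. In 3 pairs of members, AT1G64140 with AT1G64142, PAO2 with AT2G43018 and XPL1 with AT3G17998, the genes overlap on the same strand and none of their reads is unique, so that 112 remain with each pair counted once, and AT5G64552 shares all its reads with a gene outside the set.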

How the data were processed

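RNA of 12 leaf libraries, 3 for each of 4 genotypes, was read from 1 table per library. Per the file headers, each deposited table holds raw counts of reads per gene (total and unique exon, gene, junction and intron reads) with RPKM and TPM values. The submitters' processing notes name TAIR10 as the build, and the libraries were made with an unstranded kit, per the labels' protocols. The aligner and counter are not named in the sources used here. Deposited RPKM was used to set levels of different genes side by side, and deposited TPM was not used.

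Ratios and levels came from total exon reads scaled to CPM. Counts were tested with edgeR 4.0.16 in R 4.3.3 (TMM, filterByExpr, which left 16350 genes, and 1 quasi-likelihood fit of all 12 libraries without a replicate block). Calls needed an adjusted p under 0.05 (Benjamini-Hochberg, over all genes tested), and every adjusted p is of this kind unless DESeq2 1.42.0 is named. The fit was tested on simulated counts for sapx tapx against wild type, with 100 genes changed 2-fold and 100 changed 4-fold. It recovered 64% and 99% of them, and 11 of 174 calls were false. All changed genes had a mean above 5 CPM, so the recovery does not cover genes below that level. The simulated libraries had no pairing by replicate number. Nothing in the labels says that replicates came from separate plants, so p-values measure only the spread between these samples, which may be technical. Same-numbered libraries deviated together between pgr5 and wild type (r = 0.24, 0.55 and 0.49) and between the triple mutant and sapx tapx (r = 0.55, 0.73 and 0.55), so the block with the replicate number is given beside a list's or family's count that it changes by over 1.5 times. This pairing is seen in the data and not stated in the labels.

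The members, the roles, the 21 gene lists and the families, taken from annotated symbols, were chosen with earlier results of these data known. Named are the 12 members with the lowest ratios, the 10 with the highest wild type CPM, members in a list, genes at the threshold, and examples of each role. Symbols matched for 28009 of 28642 genes in RefSeq TAIR10.1, the source of the printed sequences. Alternatives covered the scaling, pseudocount, thresholds, unique reads, DESeq2, the filter, the block, the compared groups alone, and each library left out in turn.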

Additional observations from a re-analysis of the deposited data

How the results depend on the processing

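The 115 genes became 59 with a ratio threshold of 0.6, 217 with 0.75, and 192 when libraries could overlap. The other choices of scaling, pseudocount, level and unique reads gave 88 to 152, and leaving out a library or a replicate number gave 109 to 163. Counts of all genes called moved more. In pgr5 against wild type they were 638 in the fit of all libraries, 337 with the compared groups alone, 904 with the replicate block and 210 to 660 with a library left out. In the triple mutant against sapx tapx they were 1293, 1536 with the block, 3008 with the compared groups alone and the block, and 746 to 1523 with a library left out. In sapx tapx against wild type they were 6, 57 by DESeq2, 3 with the compared groups alone, 2 with these and the block, 29 with the block, and 4 to 81 with a library left out, the 81 without wild type replicate 2. Without replicate 2 of both genotypes the count was 326, and 2 members were called where all other settings called 0; the members' median of 0.06 there became -0.03 without wild type replicate 2. In the triple mutant against pgr5 they were 252, 416 with the block and 112 to 341 with a library left out. The causes were not tested. In the last 2 comparisons same-numbered libraries did not deviate together (r from -0.60 to 0.04). The block with the compared groups alone and the joint omission of both replicate 2 libraries were chosen after seeing the data. In pgr5 against wild type and in the triple mutant against sapx tapx, no fitted difference of a member changed direction: 4556 stayed within 1 SD of the reported value and 30 moved further. The rule kept only genes whose 6 libraries with pgr5 lay below the other 6. A change of direction was therefore hardly possible, and nothing is read from its absence. Members near 5 CPM in wild type rest on few reads.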

Other observations

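The members had fewer exons than the genes that reached the wild type minimum. The median was 3 exons, against 7 in the 13035 genes with a wild type mean of 5 CPM or more, and 50.4% of the members had 3 or fewer, against 26.2%. Exon length was close, with medians of 1583 and 1666 bases. These are descriptions of the picked genes, and no test was made.

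The genes were spread over the chromosomes much as other genes were, with 25.2% on chromosome 1, 13.0% on chromosome 2, 20% on chromosome 3, 16.5% on chromosome 4 and 25.2% on chromosome 5, against 26.0%, 15.2%, 19.9%, 15.3% and 23.6% of the 13035. Within 20 kb of each other, without overlap, lay 4 pairs: AT1G78020 and PGM, CYP81F3 and CYP91A2, AT5G10390 and AGP4, and AT5G62210 and GT18, the last pair 0.967 kb apart. A gene on the opposite strand overlapped 8 members, and in 4 of these its total reads came to more than 10% of the member's total. In these 4 the overlap was 47 to 77 bases. AT1G78060 had 2877 reads against 787 of PGM, and WRKY40 had 2443 against 861 of AT1G80850.

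Within a genotype, the slope of a member's log2 CPM on the mean log2 CPM of 19 rapid stress genes, after subtracting genotype means, ranged from -0.32 (GPRI1) to 0.28 per log2 unit, with a median of -0.04. It was below 0 in 77 of the 115 (66.96%) and in 6187 of the 13035 genes (47.5%), whose median was 0.004. These slopes are a description over 12 libraries, and no test was made. Replicate 2 stood high in the stress genes within wild type. It stood low within the triple mutant and within sapx tapx.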
